A study of Mus musculus with 56 samples.

Results

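The Hox genes described here are 38 homeobox genes of the 4 mouse Hox clusters, 10 in Hoxa, 10 in Hoxb, 9 in Hoxc and 9 in Hoxd. Their H2A.Z was followed through 2 overlapping sets of CUT&Tag peaks. The first set is every interval of the deposited H2A.Z peak set that overlaps a cluster by at least 1 bp, from the first to the last listed gene, which is 49 of 61420 peaks. The second is every changed peak that the authors' lists name for a listed gene, which is 20 peaks, and the union of both sets is 51 peaks. The first set was chosen by position, whether or not a peak changed. The second holds changed peaks by definition, so its counts are set only against other genes counted in the same way.

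CUT&Tag uses an antibody to direct a transposase to chromatin, so that the sequenced fragments mark where a protein lies. Mouse embryonic stem cells of the RHKI line, made from E14Tg2a, carried a knock-in of HA-tagged Rnaseh1 under doxycycline control, and the cells of both groups carried it. The treated group, of 4 H2A.Z libraries, was made after 48 hours of doxycycline at 500 ng/ml, and the control group, also of 4 H2A.Z libraries, from cells without doxycycline. Both groups were kept in 2i/LIF medium that held 2% FBS, 3 µM CHIR99021, a GSK3 inhibitor, and 1 µM PD0325901, a MEK inhibitor. RNase H1 digests RNA that is paired with DNA, as it is in R-loops, and the comparison asks where H2A.Z differs once these are reduced. Neither the induction nor the reduction was measured here. Of 56 labelled libraries for 10 targets, the 48 for targets other than H2A.Z were not analysed here. The labels do not say whether the libraries of a group came from separate clones or cultures. The labelled cell type could not be checked against marker genes, because the files hold peak positions and no expression.

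The deposited H2A.Z data are positions. A peak was called lower if it stands in the authors' list of lower peaks, higher if it stands in their list of higher peaks, and unchanged if neither list holds it. Unchanged therefore means that a peak was not listed, and does not show that its H2A.Z was equal in both groups. The names of the lists are the only source for the direction, which is taken as doxycycline against control. Neither list has values per library, fold changes or p-values. The depth and the spread between the 4 libraries of a group are therefore unknown here, and no single peak could be tested. Width in bp is the only size that the files give for a peak. The 95% exact Clopper-Pearson intervals printed with shares cover counting error only, and neighbouring peaks of 1 cluster are not independent.

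Hox proteins are homeodomain transcription factors that set position along the head-to-tail axis of the embryo and, in the posterior groups, along the limb. Genes at the 3′ end of a cluster, of paralog group 1, act earlier and further forward than genes at the 5′ end, of paralog group 13, and members of a paralog group descend from 1 ancestral gene. In embryonic stem cells the clusters are a classical target of Polycomb repression, and H2A.Z is known from the promoters of such silenced developmental genes as well as from active promoters. Paralog groups 1 to 3 are called anterior here, groups 4 to 8 central and groups 9 to 13 posterior.

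In the Hox clusters 26 of 49 H2A.Z peaks were lower with doxycycline, a share of 53.1% (38.3 to 67.5%), and 0 were higher, a count that allows a share of up to 7.25% by the exact interval. Over the whole set 14.8% of peaks were lower (9077 of 61420) and 0.518% were higher (318 of 61420). The lower peaks lay in all 4 clusters, over the starts of Hoxa4, Hoxb13, Hoxc8 to Hoxc11, and Hoxd1, Hoxd3, Hoxd8, Hoxd9 and Hoxd12, and in the spaces between genes. The 100 kb on either side of each cluster held 39 peaks, of which 6 were lower (15.4%, 5.86 to 30.5%). The share in the clusters thus stood above that of the whole set by more than its counting interval, and the flanks did not.

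The sequences that follow are start regions of Hox genes of both kinds, from the RefSeq promoter table of GRCm38.p6, each running from 250 bases before to 50 bases after the annotated start and read 5′ to 3′ on the strand of the gene. Capitals mark the bases that lie inside an H2A.Z peak. Hoxd1 and Hoxb1 are the listed genes of paralog group 1, and they are shown because Hoxd1 had a lower peak and Hoxb1 an unchanged one.

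Hoxd1 (chr2:74762730-74763029, plus strand, lower): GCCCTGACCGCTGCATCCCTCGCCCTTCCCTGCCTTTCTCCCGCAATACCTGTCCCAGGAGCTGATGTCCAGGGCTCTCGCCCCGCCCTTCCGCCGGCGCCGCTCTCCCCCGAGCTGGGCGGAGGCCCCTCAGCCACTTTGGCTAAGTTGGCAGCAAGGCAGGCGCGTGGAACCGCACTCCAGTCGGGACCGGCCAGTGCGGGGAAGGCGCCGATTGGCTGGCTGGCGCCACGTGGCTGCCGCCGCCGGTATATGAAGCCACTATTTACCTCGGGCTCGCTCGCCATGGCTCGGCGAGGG

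Hoxb1 (chr11:96365508-96365807, plus strand, unchanged): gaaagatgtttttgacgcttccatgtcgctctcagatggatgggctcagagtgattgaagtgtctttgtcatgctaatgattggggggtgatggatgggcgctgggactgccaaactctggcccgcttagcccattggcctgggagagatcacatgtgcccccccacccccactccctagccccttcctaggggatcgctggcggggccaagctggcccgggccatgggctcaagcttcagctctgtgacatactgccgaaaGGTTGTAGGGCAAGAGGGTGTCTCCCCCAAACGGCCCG

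All 300 bases of the Hoxd1 window lay inside a lower peak of 1495 bp. Only the last 38 bases of the Hoxb1 window lay inside its unchanged peak of 755 bp, which extends into the Hoxb1 gene. GC content was 69.7% in the Hoxd1 window and 59.3% in the Hoxb1 window. Hoxd12 and Hoxd13 are neighbours at the posterior end of Hoxd and also differed in call, and Hoxd8, of the central groups, is the lower window with the lowest GC content.

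Hoxd8 (chr2:74704365-74704664, plus strand, lower): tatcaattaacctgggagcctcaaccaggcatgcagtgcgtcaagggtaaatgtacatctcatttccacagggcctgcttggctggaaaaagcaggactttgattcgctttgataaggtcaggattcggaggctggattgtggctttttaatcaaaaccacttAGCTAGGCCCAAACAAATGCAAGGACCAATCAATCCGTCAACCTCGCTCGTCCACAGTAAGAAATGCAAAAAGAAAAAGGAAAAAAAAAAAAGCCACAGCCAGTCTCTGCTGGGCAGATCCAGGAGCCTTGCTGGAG

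Hoxd12 (chr2:74674763-74675062, plus strand, lower): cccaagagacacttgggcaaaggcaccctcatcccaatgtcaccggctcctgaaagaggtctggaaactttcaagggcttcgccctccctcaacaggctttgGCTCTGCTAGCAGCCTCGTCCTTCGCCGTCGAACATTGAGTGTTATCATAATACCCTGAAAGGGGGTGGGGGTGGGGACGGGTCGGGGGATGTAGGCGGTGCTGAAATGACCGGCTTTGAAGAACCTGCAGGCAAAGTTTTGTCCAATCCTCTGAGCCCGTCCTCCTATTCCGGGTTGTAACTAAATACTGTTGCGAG

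Hoxd13 (chr2:74667975-74668274, plus strand, unchanged): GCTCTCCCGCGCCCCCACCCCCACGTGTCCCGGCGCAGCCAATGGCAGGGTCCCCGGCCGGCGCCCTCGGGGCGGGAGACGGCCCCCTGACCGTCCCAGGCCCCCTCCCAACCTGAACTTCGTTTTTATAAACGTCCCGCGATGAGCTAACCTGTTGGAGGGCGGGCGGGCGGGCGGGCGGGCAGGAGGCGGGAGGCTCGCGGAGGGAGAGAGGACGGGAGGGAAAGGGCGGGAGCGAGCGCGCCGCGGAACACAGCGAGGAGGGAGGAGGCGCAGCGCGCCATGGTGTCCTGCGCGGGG

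The Hoxd8 window had 46.7% GC and 6 CpG dinucleotides, with 137 of its bases in the lower peak. The Hoxd12 window had 55.0% GC and 13 CpG dinucleotides, with 198 bases in the lower peak. The Hoxd13 window had 74.3% GC and 37 CpG dinucleotides, all 300 bases of it in an unchanged peak. The lower windows shown, all of Hoxd, thus did not share 1 base composition.

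**Figure D1:**
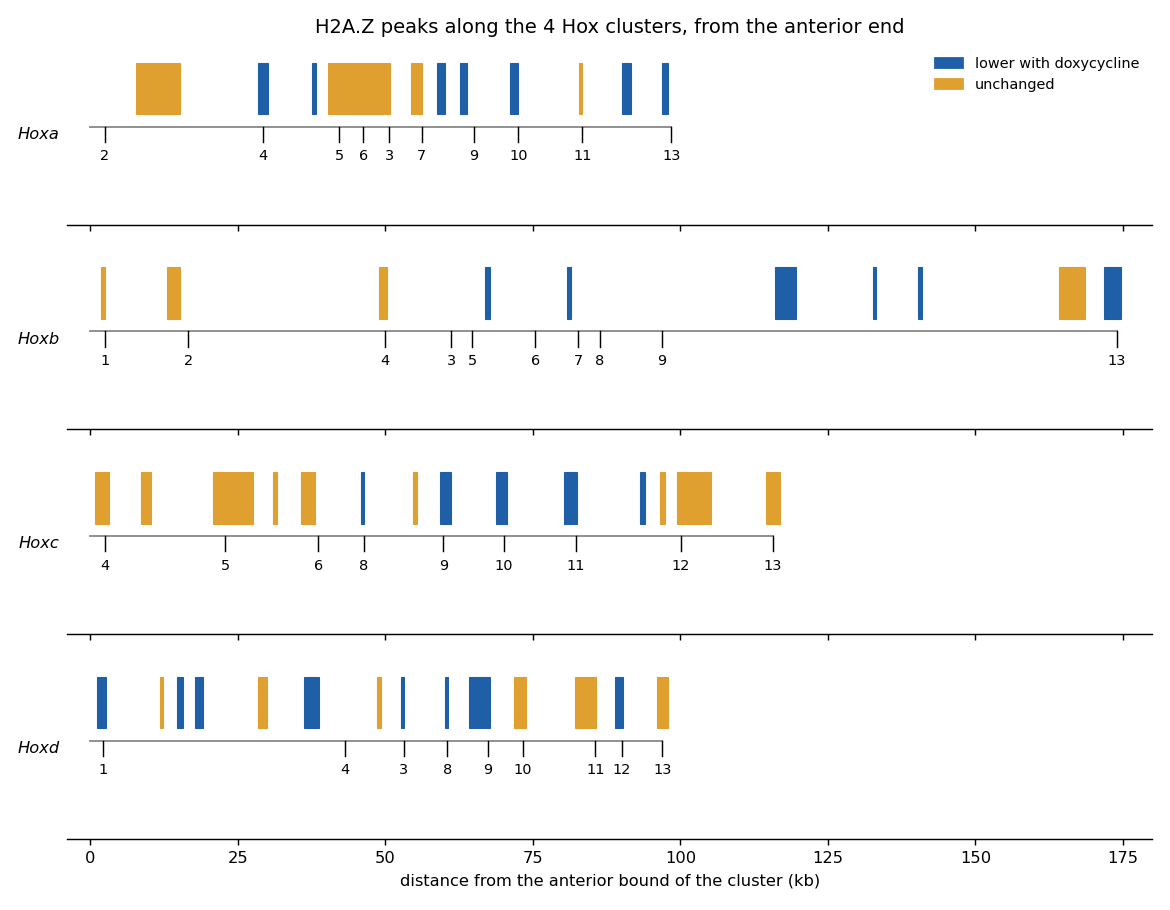
Each row is 1 Hox cluster drawn to scale in kb from its anterior bound, with a bar for each H2A.Z peak (blue, lower with doxycycline; orange, unchanged) and ticks at the annotated starts of the listed genes, numbered by paralog group. Hoxa3 and Hoxd3 are drawn at their outermost start, and genes outside the promoter table, among them Hoxb3 and Hoxc6, at their 5′ end. In Hoxc lower peaks cover the starts of groups 8 to 11, while the anterior end of Hoxb holds unchanged peaks, and no peak in any row was higher.

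Hoxa (chr6:52162417-52260880, 98.5 kb, genes on the minus strand) held 11 peaks, of which 7 were lower (63.6%, 30.8 to 89.1%). Lower peaks were named for 6 of its 10 listed genes. At Hoxa4, which acts in the hindbrain and neck region, a lower peak of 1633 bp was centred 14 bp from the TSS (chr6:52190873-52192505). At Hoxa7 a lower peak of 1473 bp lay 3274 bp upstream of the TSS in a CpG island (chr6:52221111-52222583), while the Hoxa7 start itself lay in an unchanged peak of 1866 bp. Hoxa7 thus had both states within a few kb.

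Hoxa9, a regulator of blood progenitors, had a lower peak of 1202 bp in its exon 1, at +1645 bp (chr6:52225125-52226326). Hoxa10, which patterns the uterus, had one of 1249 bp in exon 1 at +739 bp (chr6:52233576-52234824). Hoxa11, which acts in the forearm and uterus, had one of 1510 bp in an intergenic CpG island at -7440 bp (chr6:52252496-52254005), and its start lay in an unchanged peak of 501 bp. Hoxa13, needed for the digits and the hindgut end, had one of 1009 bp in an intron at +1135 bp (chr6:52259241-52260249). In the posterior Hoxa groups 4 of 5 peaks were lower.

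The widest unchanged peak of all 4 clusters lay in Hoxa and spanned 10602 bp (chr6:52202684-52213285). It covered the starts of Hoxa5 and Hoxa6 and the outermost start of Hoxa3, and no lower peak of the clusters covered more than 1 listed start. A second unchanged peak, of 7587 bp, lay in the Hoxa3 gene body, which by its outermost start runs past Hoxa4 to Hoxa6 and overlapped 4 peaks, 2 of them lower. Hoxa2, the hindbrain and second-arch gene, had no peak within 1 kb of its start or in its body.

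Hoxb (chr11:96194316-96368254, 174 kb, plus strand) held 10 peaks, of which 6 were lower (60.0%, 26.2 to 87.8%). Only 3 of its 10 listed genes were named for a lower peak. The Hoxb13 start, the most posterior in Hoxb and a gene of prostate and tail, lay in a lower peak of 2724 bp at +709 bp, in exon 1 (chr11:96193664-96196387). A further lower peak named for Hoxb13, of 949 bp at -16408 bp, lay outside the cluster bounds (chr11:96177434-96178382). Hoxb6 had a lower peak of 758 bp in exon 2 at +1836 bp (chr11:96300532-96301289), and Hoxb7 one of 769 bp in an intron and CpG island at +492 bp (chr11:96286754-96287522).

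The long interval between Hoxb9 and Hoxb13 held 3 further lower peaks, of 3673, 501 and 628 bp, all named for the lncRNA Gm53. They lay at -1241, -16367 and -23963 bp from its TSS. The peak of 3673 bp was the widest lower peak of the 4 clusters (chr11:96248583-96252255). It overlapped Gm53 and no listed Hox gene. Next to Hoxb13 in the same interval lay the widest unchanged Hoxb peak, of 4491 bp (chr11:96199619-96204109), over the lncRNAs Gm30134 and Gm11538.

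The anterior end of Hoxb held unchanged peaks. Hoxb1, which specifies a hindbrain segment, had an unchanged peak of 755 bp, Hoxb2 one of 2097 bp in its gene body and Hoxb4 one of 1247 bp over its start. Hoxb3 had no peak within 1 kb of its start, and its gene body overlapped the same unchanged peak as Hoxb4. Hoxb5, Hoxb8 and Hoxb9 had no peak at the start or in the body, and in all 7 of the 10 Hoxb starts had none within 1 kb. For 7 Hoxb genes the start used is the 5′ end of the gene in the gene table, which for Hoxb7 lies upstream of the TSS that the authors used.

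Hoxc (chr15:102921131-103036856, 116 kb, plus strand) held 14 peaks, of which 5 were lower (35.7%, 12.8 to 64.9%), the lowest share of the 4 clusters. 4 of the 5 lay over the starts of consecutive genes. Hoxc8, a thoracic gene, had a lower peak of 501 bp in its 5′ UTR at +237 bp (chr15:102990526-102991026). Hoxc9, which acts in thoracic motor neurons, had one of 1860 bp at its promoter, at -449 bp (chr15:102975654-102977513). Hoxc10, a lumbar gene, had one of 1878 bp in exon 1 at +396 bp (chr15:102966254-102968131). Hoxc11 had one of 2186 bp in its intron at +910 bp (chr15:102954344-102956529). Between Hoxc11 and Hoxc12 the fifth lower peak, of 807 bp, was named for the lncRNA Hotair at +4656 bp, past the end of that gene.

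An unchanged peak of 641 bp in the Hoxc9 body lay inside this run of starts, and on either side of it the Hoxc genes had unchanged peaks. Hoxc12 and Hoxc13, at the posterior end, lay in unchanged peaks of 5753 and 2357 bp. Hoxc5 lay in the widest unchanged Hoxc peak, of 6753 bp (chr15:103009354-103016106), which also overlapped the Hoxc6 gene. A peak of 2458 bp lay within 1 kb of the outermost Hoxc6 start, and another of the same width covered the Hoxc4 start. The lower peak named for Hoxc4, of 896 bp, lay in a CpG island at +51860 bp, past the anterior bound of the cluster (chr15:103085808-103086703). All 9 Hoxc starts had a peak within 1 kb, 4 of them a lower one.

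Hoxd (chr2:74668225-74765142, 96.9 kb, plus strand) held 14 peaks, of which 8 were lower (57.1%, 28.9 to 82.3%). It was the cluster in which lower peaks lay over starts of anterior genes. Hoxd1 had the lower peak of 1495 bp at +264 bp shown above by its sequence, and the outermost Hoxd3 start had one of 501 bp in the 5′ UTR at +223 bp (chr2:74711966-74712466). Hoxd3 acts in the neck vertebrae. A lower peak of 2518 bp lay in Hoxd4, in an intron (chr2:74726454-74728971), and the authors' list names it for Mir10b, not for Hoxd4. A lower peak of 1450 bp lay over exon 3 of Hoxd3 and another, of 1057 bp, over the antisense lncRNA Haglr, and the lists name both for Gm14424.

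In the central and posterior part of Hoxd, Hoxd8 had a lower peak of 501 bp at +163 bp (chr2:74704528-74705028). Hoxd9 had one of 3574 bp at +1361 bp, the widest lower peak over a listed start (chr2:74697338-74700911). Hoxd12 had one of 1312 bp in exon 1 at +507 bp (chr2:74674865-74676176). Hoxd10, Hoxd11 and Hoxd13, which act with Hoxd12 in the distal limb, had unchanged peaks of 2089, 3410 and 1836 bp over their starts. The peak at Hoxd11 was the widest unchanged one in Hoxd (chr2:74679516-74682925). Towards the posterior end of Hoxd lower and unchanged starts were therefore mixed, unlike the run of lower starts in Hoxc.

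**Figure D2:**
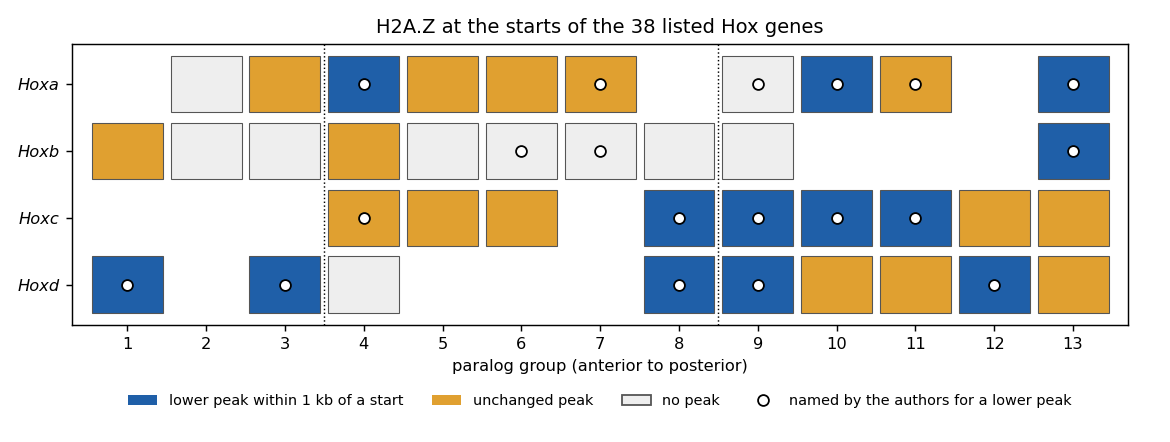
Columns are paralog groups 1 to 13 and rows are the 4 clusters, and each square is 1 listed gene coloured by the H2A.Z peak within 1 kb of its annotated start, with a circle where the authors' list names the gene for a lower peak. Of the 38 genes 13 have a lower peak, 15 an unchanged one and 10 none, and groups 8 to 13 each hold at least 1 lower start. Hoxb7 is drawn without a peak by the start used here, although its lower peak is centred within 1 kb of the authors' TSS.

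By gene, 19 of 38 listed genes were named by the authors for a lower peak, against 26.5% of protein-coding genes of the annotation (5809 of 21896), and 0 were named for a higher one. Of the 20 named peaks, 4 were annotated as promoter, 2 as 5′ UTR, 6 as exon, 4 as intron and 4 as intergenic. 12 were centred within 1 kb of the TSS, 16 within 3 kb, and 16 lay downstream of it. The median distance to the TSS was 724 bp for the named Hox peaks and 5570 bp for all lower peaks. These medians are not like for like. The 38 listed genes lie within 485 kb, and cluster peaks named for other transcripts are left out of the first median. A count by gene name misses Hox bodies whose peak carries another name, and 8 lower peaks inside the bounds were named for Hoxaas3, Gm53, Hotair, Mir10b or Gm14424.

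By start, 13 of 38 genes had a lower peak within 1 kb, 15 an unchanged peak and 10 no peak. Starts came from the RefSeq promoter table for 22 genes and from the 5′ end of the gene for 16. On the genes of the promoter table alone, a lower peak lay within 1 kb of a start for 7 of 22 Hox genes (31.8%, 13.9 to 54.9%), against 13.8% of all genes of that table (3732 of 27025). Among those with any peak there, the shares were 38.9% of Hox genes (7 of 18) and 27.7% of all genes (3732 of 13463). This background was added after the values were seen. Over the 38 genes, lower peaks were found at 2 of 7 anterior starts, 3 of 15 central starts and 8 of 16 posterior starts. Paralog groups 8, 9, 10 and 13 had 2 lower starts each, and groups 2, 5, 6 and 7 had none. For group 7 this depends on the start used. Hoxb7 was counted as without a peak by its 5′ end, but its lower peak was centred 492 bp from the authors' TSS. In 7 of 13 paralog groups 1 start was lower while another of the same group was unchanged, as for Hoxd1 and Hoxb1 or Hoxd12 and Hoxc12. In other groups the starts with a peak were alike: Hoxc8 and Hoxd8 were both lower, as were Hoxc9 and Hoxd9, and Hoxa5 and Hoxc5 were both unchanged, as were Hoxa6 and Hoxc6.

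By peak, each assigned to the listed gene with the nearest start, 4 of 9 anterior peaks were lower (44.4%, 13.7 to 78.8%), 8 of 17 central peaks (47.1%, 23.0 to 72.2%) and 14 of 23 posterior peaks (60.9%, 38.5 to 80.3%). Anterior minus posterior was -16.4 percentage points, and the intervals overlap widely. The anterior lower peaks were all 4 in Hoxd, where 4 of 6 anterior peaks were lower, against 0 of 1 in Hoxa and 0 of 2 in Hoxb. The classes follow paralog groups and not always position. The starts used for Hoxa3, Hoxb3 and Hoxd3 lie posterior to those of Hoxa6, Hoxb4 and Hoxd4, respectively. The lower peak at that Hoxd3 start is 1 of the 4. In Hoxd 2 of 5 posterior peaks were lower, while in Hoxa and Hoxb 4 of 5 each were. Apart from the peak at Hoxb13, the lower posterior Hoxb peaks were those named for Gm53. They lay 20911, 36037 and 33381 bp from the nearest listed start and overlapped no listed gene. Hoxc gave 8 posterior peaks, 4 of them lower, and no anterior ones. Without Hoxb the difference was 1.59 points, in the other direction (57.1% anterior and 55.6% posterior), and without Hoxd it was -66.7 points. A difference between anterior and posterior peaks was thus not detectable with 49 peaks, and its direction rests on Hoxb.

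**Figure D3:**
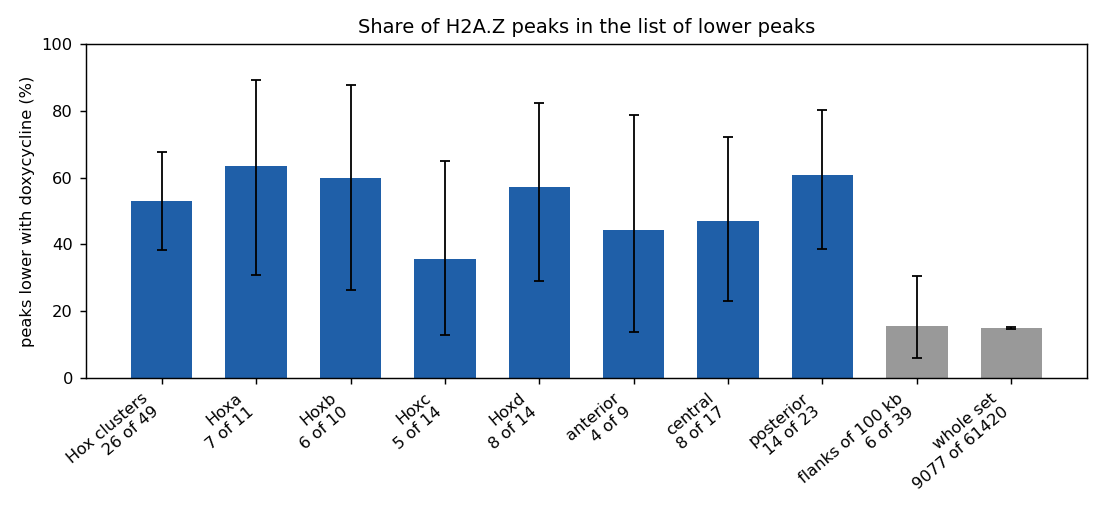
Bars give the percentage of H2A.Z peaks that were lower with doxycycline in the Hox clusters together, in each cluster, in each paralog class, in the 100 kb flanks and in the whole set, with 95% exact Clopper-Pearson intervals for counting. The 4 clusters run from 35.7 to 63.6%, all above 14.8% in the whole set, and the interval of Hoxc reaches down to 12.8%.

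The clusters were dense in H2A.Z peaks. They held 10.1 peaks per 100 kb, against 2.31 over all chromosomes, and peaks covered 20.1% of their bases, against 3.44%. Hoxd was densest at 14.4 peaks per 100 kb, followed by Hoxc at 12.1, Hoxa at 11.2 and Hoxb at 5.75. The share of bases under a lower peak was 12.8% in Hoxd, 8.84% in Hoxa, 6.25% in Hoxc and 4.83% in Hoxb. Outside the clusters, among peaks with at least 10 others within 50 kb, which is the Hox median, 435 of 2896 were lower (15.0%, 13.7 to 16.4%). The part of density in the Hox share was not tested. On their own chromosomes the overall shares were 11.4% for chromosome 6, 21.2% for chromosome 11, 19.0% for chromosome 15 and 16.0% for chromosome 2.

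Lower H2A.Z in the clusters was not limited to gene starts. Of 22 cluster peaks that cover a listed start 11 were lower, and of 27 that cover none 15 were lower (55.6%). Outside the clusters, a peak over a start of the promoter table was lower in 26.9% of cases (2716 of 10109) and a peak over none in 12.4% (6335 of 51262). These backgrounds of density and start were chosen after the values were seen, and they use the promoter table, which holds 22 of the 38 genes. On that table alone 5 of 17 cluster peaks over a start were lower (29.4%, 10.3 to 56.0%), an interval that holds the 26.9% of the rest, and 21 of 32 over no such start were (65.6%, 46.8 to 81.4%). Peaks over starts known only from the gene table, such as Hoxc8 to Hoxc11, are counted in the second of these.

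Neighbouring peaks of 1 cluster formed runs to a varying extent. The longest run of lower peaks was 5 in Hoxb, from Hoxb6 to the Gm53 interval, 4 in Hoxc, and 3 each in Hoxa and Hoxd. Of neighbouring pairs, 9 of 13 in Hoxc and 6 of 9 in Hoxb shared their state, and 5 of 10 in Hoxa and 4 of 13 in Hoxd did. Neighbours of like state were thus more frequent in Hoxc than in Hoxd. Whether the order in either cluster differs from a random one was not tested.

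Lower peaks in the clusters had a median width of 1280 bp (range 501 to 3673), against 1866 bp for unchanged cluster peaks (501 to 10602). Over the whole set lower peaks had a median width of 1034 bp and unchanged peaks 967.0 bp, so the order of the medians was the other way round there. In Hoxa the medians were 1249 bp for lower and 4726 bp for unchanged peaks, in Hoxb 763.5 and 1672 bp, in Hoxc 1860 and 2357 bp, and in Hoxd 1381 and 1689 bp. Lower and unchanged widths overlapped in every cluster. All 5 cluster peaks wider than 4000 bp were unchanged: 2 in Hoxa, 2 in Hoxc and 1 in Hoxb. A count of 0 lower of 5 allows a share of up to 52.2% by the exact interval, and over the whole set 8.97% of peaks of that width were lower (318 of 3546). Peaks of the set lie at least 2001 bp apart, so a wide interval may join several sites of H2A.Z, and a loss at 1 of them could not be seen in these lists.

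**Figure D4:**
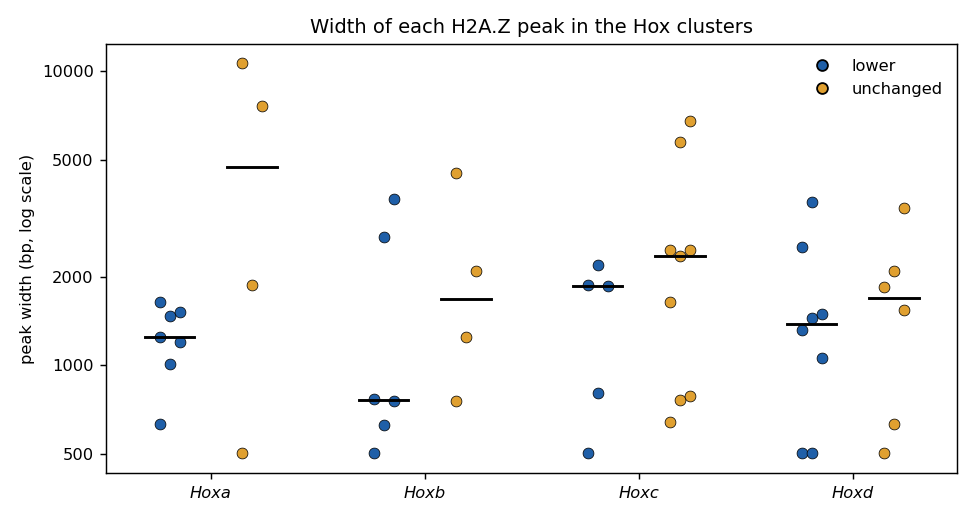
Each point is 1 H2A.Z peak in a Hox cluster, with its width in bp on a log axis, for lower peaks (blue, left) and unchanged peaks (orange, right) of each cluster, and bars mark medians. Lower peaks end at 3673 bp, and the 5 peaks above 4000 bp are all unchanged.

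In the bands of width up to 4000 bp, the share of lower peaks was higher in the clusters than in the whole set. Peaks of 501 bp have the smallest width in the set. Of these, 4 of 6 were lower in the clusters (66.7%, 22.3 to 95.7%), against 14.6% in the whole set. Of wider peaks below 1001 bp 5 of 10 were lower (18.7 to 81.3%), against 13.1%. Between 1001 and 2000 bp 12 of 17 were lower (70.6%, 44.0 to 89.7%), against 18.4%. Between 2001 and 4000 bp 5 of 11 were lower (45.5%, 16.7 to 76.6%), against 14.0%. Each band holds few cluster peaks, and the part of width in the Hox share was not tested.

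**Figure D5:**
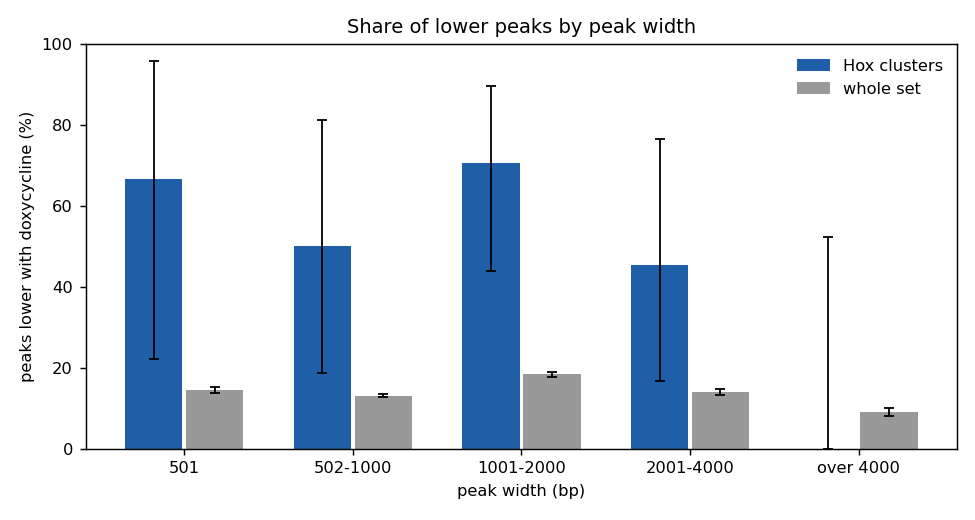
Bars give the percentage of peaks that were lower with doxycycline by peak width in bp, for the Hox clusters (blue) and the whole set (grey), with 95% exact Clopper-Pearson intervals for counting. The Hox share lies between 45.5 and 70.6% in the 4 bands up to 4000 bp and is 0 of 5 above it.

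The RefSeq promoter table held 24 start windows for 22 of the listed genes. A lower peak overlapped 5 of them, those of Hoxd1, Hoxd3, Hoxd8, Hoxd9 and Hoxd12, an unchanged peak overlapped 12 windows of 11 genes, and 7 windows of 6 genes had no peak. Over all promoter windows with a peak 27.4% had a lower one (3807 of 13888). Median GC content was 55.0% in the lower Hox windows (46.7 to 69.7%) and 61.0% in the unchanged ones (45.7 to 74.3%). Over all promoters the medians were 63.7% with a lower peak and 57.7% with an unchanged one. The ranges of lower and unchanged Hox windows overlapped almost fully. All lower windows came from Hoxd, while the unchanged ones came from every cluster, so state and cluster cannot be told apart here. The observed over expected ratio of CpG had a median of 0.57 in lower and 0.71 in unchanged Hox windows, and GC skew, the excess of G over C on the gene's strand, one of 0.01 and 0.09.

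Motifs were searched on both strands of these windows as exact letters. GGGGNGGGG, a pair of G runs, was found in 1 of 5 lower windows, that of Hoxd12, in 6 of 12 unchanged windows, among them Hoxb1 and Hoxd13, and in 22.4% of all promoters. GGGG alone, which each GGGGNGGGG contains, was found in 4 of 5 lower windows, 12 of 12 unchanged windows and 86.4% of all promoters. TATAAA was found in 4 of 24 Hox windows (16.7%) and 13.6% of all promoters. TGATTNAT, a site for HOX with PBX, was found in 2 of 24 windows (8.33%) and 3.22% of all promoters, and TTTATNG, which CDX proteins bind, in 2 of 24 (8.33%) and 10.9%. The direct repeats of AGGTCA or AGTTCA with 5 bases between, which retinoic acid receptors bind, were in 0 of 24 Hox windows and in 0.00913% and 0.0244% of all promoters. A match is a description of letters and not a site in use, and no match says only that these windows lack the letters.

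The clusters also carry miRNA genes, which lie at like places in different clusters and repress Hox transcripts among others. The mature 5p sequences of the miR-10 and miR-196 families are shown from RefSeq because each family has genes in more than 1 cluster and shares a seed, bases 2 to 8, in capitals. Mir615 belongs to neither family.

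mmu-miR-10a-5p: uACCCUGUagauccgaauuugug

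mmu-miR-10b-5p: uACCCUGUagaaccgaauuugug

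mmu-miR-196a-5p: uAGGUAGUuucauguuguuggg

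mmu-miR-196b-5p: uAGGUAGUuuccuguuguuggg

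The miR-10 pair shares the seed ACCCUGU, but the peaks nearest to its genes differed in state. Mir10b, in Hoxd, lay 317 bp from the lower peak of 2518 bp in the Hoxd4 intron, and Mir10a, in Hoxb, lay 728 bp from the unchanged peak of 1247 bp at Hoxb4. The miR-196 genes share the seed AGGUAGU, and for all 3 the nearest peak was lower. It lay 3411 bp from Mir196b, at Hoxa10, 2220 bp from Mir196a-2, at Hoxc9, and 12909 bp from Mir196a-1, near Gm53. No peak overlapped a miR-196 gene. Of all cluster peaks 26 of 49 were lower, so these 3 do not set the family apart. Mir615 lay inside the unchanged peak of 6753 bp at Hoxc5. These are distances along the genome, and the miRNAs themselves were not measured.

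Besides the listed genes, the annotation places 30 other transcripts within the bounds, 23 of them lncRNAs, of which 15 overlapped a peak and 6 a lower one. The share over all lncRNAs of the annotation was not counted, so these counts do not show whether the cluster lncRNAs differ from others. Haglr, transcribed opposite to the Hoxd genes from next to Hoxd1, overlapped 3 peaks, of which 2 were lower. Gm38462, which spans Hoxd8 and reaches over the Hoxd3 start, overlapped 2 peaks, the lower ones of 501 bp at those starts. Hoxb5os overlapped the lower peak of 758 bp, which also lies in Hoxb6. Reads of overlapping or antisense genes cannot be told apart by peak position.

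Of the 8 next genes past the bounds, 1 on each side of each cluster, 3 had a lower peak over or near them and 5 did not. These counts can include a peak next to a gene that does not overlap it. Ttll6, a tubulin-modifying enzyme gene past Hoxb13, had 5 peaks, of which 2 were lower. At Hoxc, the lncRNA Gm36560 past Hoxc13 had 3 peaks, of which 1 was lower, and the lncRNA Gm28876 past Hoxc4 had 1 lower peak of 1070 bp. Hotairm1, a lncRNA at the anterior end of Hoxa, had 1 unchanged peak of 3947 bp, and Hottip, past Hoxa13, had none. Mtx2, a mitochondrial gene past Hoxd1, had 1 unchanged peak of 1278 bp. The lncRNA Gm31790, past Hoxd13, ends before the unchanged peak of 1836 bp at the Hoxd13 start, which was counted for it. The pseudogene Gm11531, past Hoxb1, had an unchanged peak of 1031 bp. The 1 lower peak in the posterior flank of Hoxd, of 1681 bp (chr2:74657594-74659274), was that of Evx2, a homeobox gene linked to Hoxd, at +1123 bp.

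The partners and regulators of the Hox genes were counted by the authors' gene names in the same way, to be read against 26.5% of protein-coding genes, and none of these lists had a gene named for a higher peak. Of 9 other homeobox genes of the Evx, Mnx, Gbx, En and Dlx families, 7 had a lower peak (77.8%), 4 of which (Mnx1, Gbx1, Gbx2 and En1) lie on chromosomes without a Hox cluster. The widest of these lower peaks were at Mnx1 (2390 bp at -43 bp), a motor neuron factor, Dlx3 (2385 bp at +918 bp) and Gbx2 (2182 bp at -37623 bp). Of the Cdx and ParaHox genes 3 of 6 had one, namely Cdx2 (3207 bp at +1336 bp), a direct activator of Hox genes in the tail bud, Pdx1 (2009 bp at +689 bp) and Gsx2 (1477 bp at -8291 bp). Of the cofactors that bind DNA with Hox proteins 4 of 9 had one (44.4%): Meis3 at its promoter (1322 bp at -8 bp), Meis1 (widest 1371 bp at -8102 bp), Pknox1 and Meis2, and none of the 4 Pbx genes.

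Retinoic acid turns the Hox clusters on from their anterior end. Of 17 genes of its synthesis, binding, breakdown and receptors 10 were named for a lower peak (58.8%), among them the receptor genes Rara (2674 bp at -10134 bp), Rarg (2663 bp at -469 bp) and Rxra (2282 bp at -210 bp) and the binding protein gene Crabp1 (2365 bp at +345 bp). Of 28 Polycomb genes, which keep Hox clusters silent, 12 were (42.9%), among them Kdm2b (2979 bp at +522 bp), Ring1 (2346 bp at +933 bp), Pcgf5 (1872 bp at +390 bp) and Cbx2 (1719 bp at -15218 bp). Of 12 Trithorax genes, which oppose Polycomb, 3 were (25.0%), Kdm6b, Wdr5 and Kdm6a. A gene name does not place a peak at the gene. All lower peaks named for En1 (179 kb from the TSS), Meis2 (205 kb), Rybp (124 and 144 kb) and Wdr5 (50.4 and 67.0 kb) were intergenic. Lower peaks named for the genes of these lists were counted as a description, and whether their expression differed was not measured.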

How the data were processed

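The authors carried out CUT&Tag for H2A.Z. The genome build was GRCm38, and deepTools, HOMER, Picard, Bowtie2 and Trimmomatic are named, per the submitters' processing notes. Not given in the sources used here are the peak caller, the test and threshold behind the changed peaks, and any pooling of libraries. HOMER annotatePeaks wrote the annotation of the changed peaks, per the file headers. The deposited score of each peak is 0 and was left out.

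Peak starts are printed counting from 1. Lower and higher peaks were matched to the peak set by exact coordinates. Peaks were placed in clusters by an overlap of at least 1 bp, and at starts within 1 kb. Genes, promoters and miRNAs came from RefSeq tables of GRCm38.p6, and all 38 symbols matched. No tests were run. Overlap counts and interval coverage were checked on simulated peaks. Members and lists were chosen with earlier results of these data known. All 38 genes were described, with full positions for named lower peaks and the widest unchanged peak of each cluster, and up to 4 genes of each other list by width. Alternatives changed the bounds, overlap, gene assignment, classes and widths. The tools were matplotlib 3.10.9, SciPy 1.17.1, pandas 2.3.3, numpy 2.4.6 and Python 3.11.15.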

Additional observations from a re-analysis of the deposited data

How the results depend on the processing

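Over 34 alternatives to 12 results, 33 kept the value within its interval or, for counts, medians and density, within 1.5 times. The exception among them was the number of Hox genes with a lower peak, which was 19 by the authors' gene name, 12 when the peak had to be centred within 1 kb of the TSS, 16 within 3 kb and 22 by nearest listed start. Staying inside an interval is a weak criterion where it is wide, as for anterior peaks (13.7 to 78.8%). The difference between anterior and posterior peaks was not among the 34. It went from -16.4 to 1.59 points when Hoxb was left out. The share of lower peaks in the clusters ranged from 42.3% with bounds widened by 50 kb to 60.0% without Hoxc. The files hold no value per library, so no library could be left out, and depth and replicate spread limit every call in a way that could not be measured here. No paired analysis was possible because the deposited lists carry no values per replicate.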
